A study of Homo sapiens with 20 samples.

Results

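The nuclear genes of the mitochondrial respiratory chain were examined in the GNAQ-mutant line Mel202, which was established from a human uveal melanoma. Members were chosen by symbol alone: names that begin with NDUFA, NDUFB, NDUFC, NDUFS, NDUFV, UQCR, COX4 to COX8 or ATP5, together with SDHA, SDHB, SDHC, SDHD and CYC1. A gene entered the tests if a probe of it passed detection (p under 0.01) on 3 or more of the 20 arrays, and its brightest such probe was used. This left 84 members of the 10673 genes tested. They comprised 33 subunits of complex I, 8 assembly factors of complex I whose names begin with NDUFAF, 3 genes of complex II, 9 of complex III, 11 of complex IV, 18 of complex V and 2 pseudogene copies. NDUFC2 was listed with a probe but detected on 1 array, and it was not tested. Of 97 protein-coding genes that fit the rule in RefSeq, 83 were listed with a probe, and the others, among them SDHB, UQCRFS1 and COX4I2, were not analysed here.

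Cells in 6-well plates received ethanol (EtOH, the vehicle), ATRA (all-trans-retinoic acid) or 9-cis RA (9-cis-retinoic acid), each retinoid at 100 nM, and were harvested after 24 or 48 h. All 6 groups came from the same line, which derives from 1 tumour. The series held 20 Illumina BeadChips, and those with a common title number were averaged, so that each time had 2 samples of EtOH, 3 of ATRA and 2 of 9-cis RA. A sample is named by the replicate numbers of its arrays, so replicate 2-3 is the mean of arrays 2 and 3. Whether these were separate cultures is not stated, and the p-values therefore measure the spread between the samples, which may be technical.

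The respiratory chain passes electrons from NADH (complex I) and succinate (complex II) through ubiquinone, complex III and cytochrome c to oxygen (complex IV), and the proton gradient built on the way drives ATP synthesis by complex V. Most of its subunits are encoded in the nucleus and imported, and they are put together with core subunits made on mitochondrial ribosomes by dedicated assembly factors, which are not part of the finished enzyme. Retinoids act on transcription through nuclear receptors of the RAR and RXR families, of which 9-cis RA is a ligand of both and ATRA of RAR.

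Detection covered 26.5% to 36.2% of the probes of an array, and 80 of the 84 members passed on all 20. Precision is limited by the small number of arrays. By how many probes they detected, the arrays fell into a first set of 12 (15870 to 17128) and a second of 8 (12561 to 14301). Replicate 4 of ATRA was measured in the second set alone at both times. CYP26A1, a retinoic acid hydroxylase used to check the treatment, was detected on 14 of 14 retinoid arrays and on 0 of 6 EtOH arrays. Of 7 melanocyte markers, the 6 with a listed probe were detected on all 20 arrays, while the 1 endothelial and 2 leukocyte markers with a probe were not detected on 3 or more arrays. Of 3 fibroblast markers with a probe, COL1A1 was detected on 0 arrays, DCN on 7 and LUM on 20. LUM, a matrix proteoglycan, was higher at 48 h by 1.34 ± 0.20 with ATRA and 1.49 ± 0.21 with 9-cis RA (log2 difference ± SE). DCN, another, read 4.43 and 4.59 with EtOH at 48 h and 6.43 to 7.01 in the retinoid samples, and no fold is given because most arrays did not detect it. The epithelial marker CDH1 was detected on 20 arrays and was higher in EtOH at 48 than at 24 h by 1.28 ± 0.18. The part of these markers in the results was not tested.

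The EtOH samples at 48 h stood apart from each other in these genes, which bears on each 48 h comparison. In EtOH 48 h replicate 1 the median deviation of the 84 members from the mean of all samples was 0.31 in log2, against -0.02 in EtOH 48 h replicate 2-3 and between -0.10 and 0.09 in the other 12 samples. Of the 84 members, 70 were higher in replicate 1 than in replicate 2-3, with a median difference of 0.33, while the median over all genes tested was 0.03 and 52.4% of them were higher. At 24 h, 31 of 84 members were higher in the corresponding EtOH replicate 1, with a median difference of -0.04. Genes of the mitochondrial ribosome also stood high in EtOH 48 h replicate 1 (0.45), while the 2668 brightest genes, which held 68 of the members, did not (-0.05). What set this sample apart was not tested, and counts of called genes at 48 h are given with and without it.

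**Figure D1:**
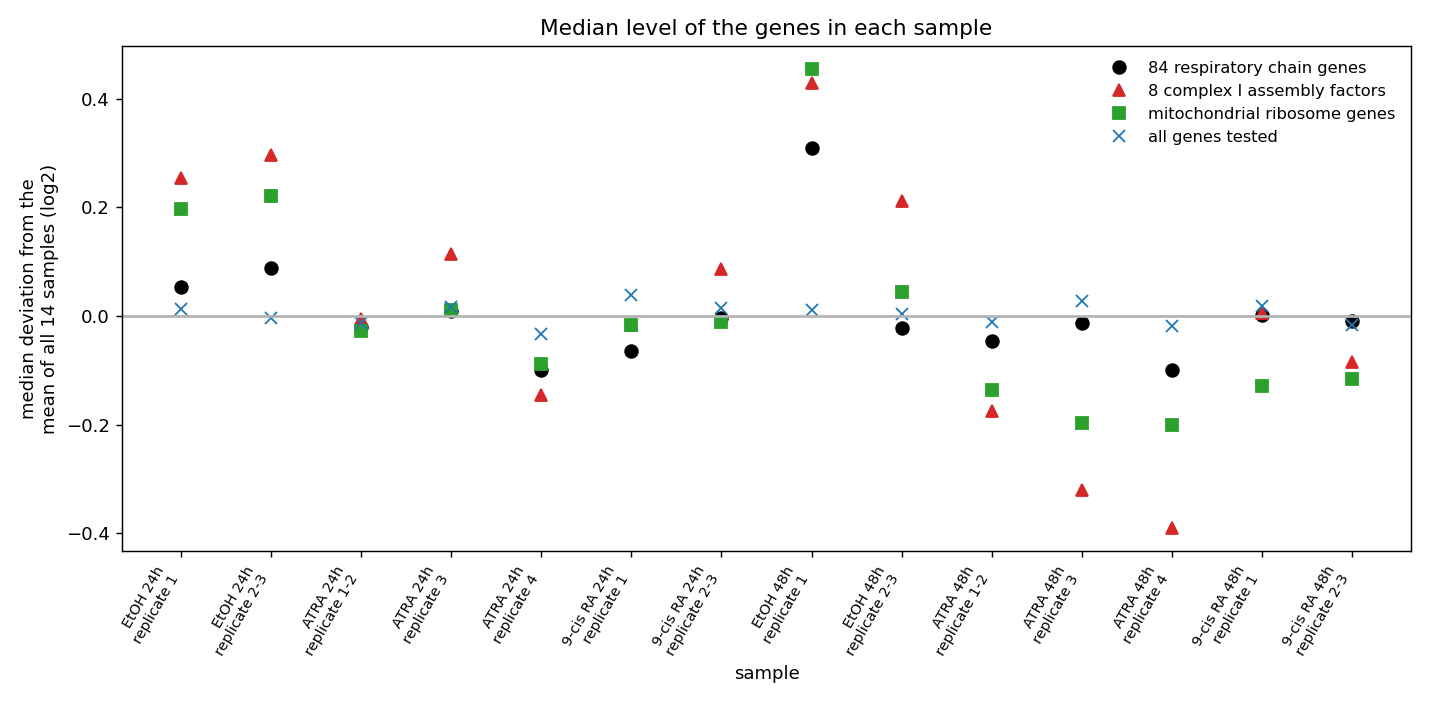
The median deviation of 4 gene groups from their mean over all 14 samples (log2, y axis) is plotted for each sample (x axis). The respiratory chain genes (circles) reached 0.31 in EtOH 48 h replicate 1 and lay between -0.10 and 0.09 elsewhere, while all genes tested (crosses) stayed near 0 in every sample and the assembly factors (triangles) were above 0 in all 4 EtOH samples.

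Of the assembly factors of complex I, some fell with retinoids at 48 h and others did not pass. With ATRA, 5 of the 8 NDUFAF genes were lower and 0 higher at an adjusted p under 0.05 (limma, Benjamini-Hochberg over all genes, as for every adjusted p here), where 8.78% of all genes tested were called lower in that comparison. With 9-cis RA, 3 of the 8 were lower, where 5.49% of all genes were lower and 5.53% higher. The median log2 difference of the 8 genes was -0.63 with ATRA and -0.35 with 9-cis RA at 48 h, and -0.34 and -0.30 at 24 h, against medians between -0.02 and 0.01 over all genes in the 4 comparisons. None of the 8 was called at 24 h with either retinoid, where 4 with ATRA and 2 with 9-cis RA had an unadjusted p under 0.05.

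NDUFAF2, which joins a late intermediate of complex I, had the largest fall of the members with ATRA at 48 h. The gene lies on chr5:60945205-61153026 (GRCh38.p14). Its log2 intensity was 11.33 and 10.63 in the EtOH samples at 48 h, 9.93, 9.94 and 9.77 with ATRA and 10.09 and 10.14 with 9-cis RA. All retinoid samples lay below both EtOH samples. It fell by 1.10 ± 0.18 with ATRA (2.15-fold lower, adjusted p = 0.00124, n = 3 and 2) and by 0.87 ± 0.20 with 9-cis RA (1.82-fold lower, adjusted p = 0.0125, n = 2 and 2). At 24 h its values were 10.88 in both EtOH samples, 10.48, 10.33 and 10.18 with ATRA and 10.43 and 10.51 with 9-cis RA. The groups did not overlap at 24 h either, and the differences of -0.55 ± 0.18 and -0.41 ± 0.20 did not pass (adjusted p = 0.097 and 0.167).

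NDUFAF5, which hydroxylates an arginine of the core subunit NDUFS7 during assembly, read 9.73 and 9.55 with EtOH at 48 h, 8.97, 8.61 and 8.76 with ATRA and 9.24 and 9.20 with 9-cis RA. The ATRA samples were the lowest of the 3 groups. It fell by 0.86 ± 0.16 with ATRA (adjusted p = 0.00333) and differed by -0.42 ± 0.18 with 9-cis RA (adjusted p = 0.158). A second detected probe of NDUFAF5 gave -0.74 with ATRA and -0.60 with 9-cis RA.

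NDUFAF4, an early assembly factor, read 9.44 and 9.14 with EtOH, 8.63, 8.52 and 8.34 with ATRA and 8.59 and 8.71 with 9-cis RA at 48 h, again with no overlap between EtOH and either retinoid. It fell by 0.79 ± 0.17 with ATRA and by 0.64 ± 0.18 with 9-cis RA (adjusted p = 0.00669 and 0.0416), and a second probe gave -0.95 and -0.87. NDUFAF8, a partner that stabilizes NDUFAF5, read 8.31 and 7.54 with EtOH, 7.13, 7.07 and 7.11 with ATRA and 7.14 and 7.26 with 9-cis RA. Its EtOH samples lay further apart than the retinoid samples did from each other. It fell by 0.82 ± 0.19 and 0.73 ± 0.21 (adjusted p = 0.0104 and 0.0392). NDUFAF6 read 10.21 and 10.10 with EtOH, 9.77, 9.64 and 9.66 with ATRA and 9.90 and 9.87 with 9-cis RA. It fell by 0.47 ± 0.14 with ATRA (adjusted p = 0.0328) and differed by -0.28 ± 0.15 with 9-cis RA (adjusted p = 0.278).

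The other 3 factors did not pass in any comparison. NDUFAF1, which starts the membrane arm, differed at 48 h by 0.01 ± 0.15 with ATRA and 0.19 ± 0.16 with 9-cis RA. NDUFAF3, the partner of NDUFAF4, differed by 0.08 ± 0.14 and 0.06 ± 0.15. NDUFAF7, a methyltransferase, differed by -0.12 ± 0.18 and 0.05 ± 0.20. Of 10 further complex I assembly genes outside the symbol rule, such as ACAD9, ECSIT and TIMMDC1, 0 were called at 48 h with either retinoid. Of all genes, 8.78% were lower with ATRA and 5.49% with 9-cis RA there. With 9-cis RA at 24 h 1 of the 10 was lower and 1 higher, where 5.78% and 8.7% of all genes were. These were ECSIT (-0.75 ± 0.21, adjusted p = 0.0338) and DMAC1 (0.69 ± 0.18, adjusted p = 0.0219). DMAC1 had low signal, at 5.24 and 5.04 with EtOH and 5.88 and 5.77 with 9-cis RA.

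NDUFAF2 and NDUFAF5 with ATRA at 48 h were the members that stayed past the threshold when each of the 14 samples was left out in turn. Without EtOH 48 h replicate 1, NDUFAF2 was lower by -0.75 ± 0.15 (adjusted p = 0.0112) and NDUFAF5 by -0.76 ± 0.20 (adjusted p = 0.0377), while 0 of the 8 factors were called with 9-cis RA. Within the first array set the ATRA differences of these 2 genes were -1.03 and -0.85, and within the second set -0.76 and -0.66. The second set has 1 EtOH array at 48 h, which shares its title number with an array of the first set, so the sets are not independent. With the array set as a term they were -1.05 ± 0.16 and -0.83 ± 0.15 (adjusted p = 9.47e-05 and 0.000511).

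**Figure D2:**
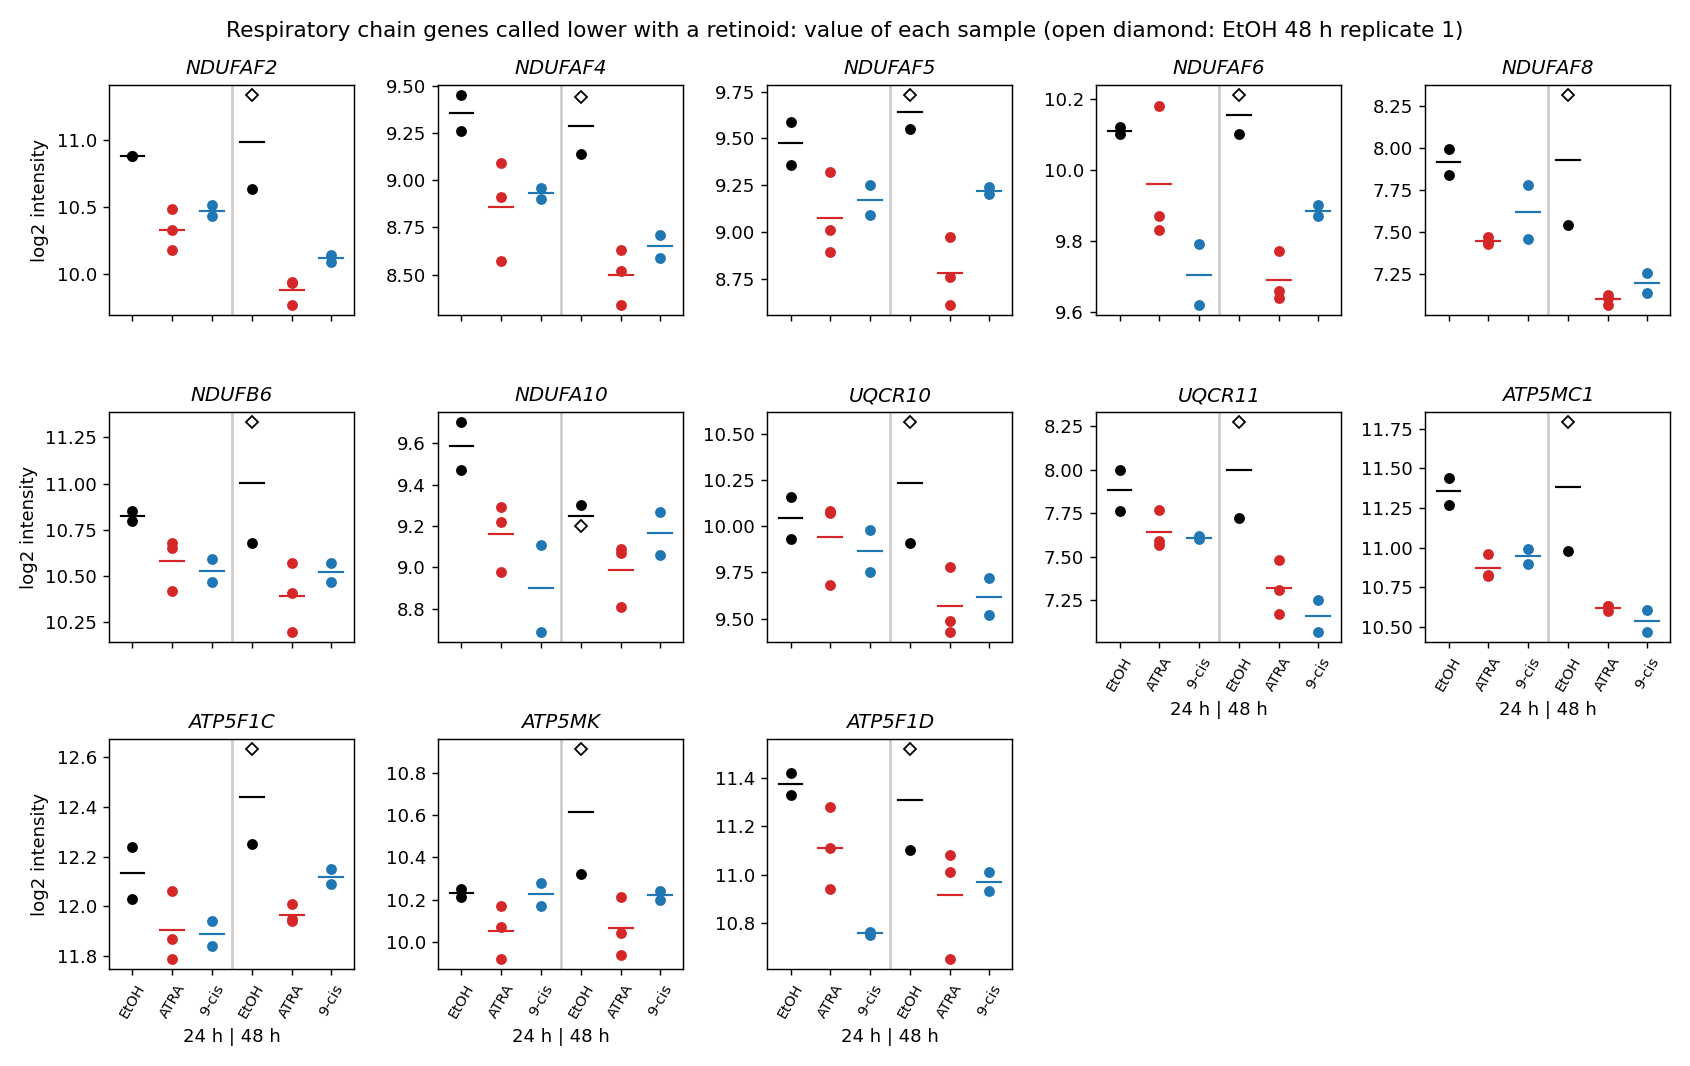
The log2 intensity (y axis, own scale in each panel) of the 13 members called lower in any comparison of a retinoid with EtOH is plotted for each sample of the 6 groups (x axis, 24 h to the left of the grey line and 48 h to the right), with short lines at group means. NDUFAF2 lies between 9.77 and 10.14 in the 5 retinoid samples at 48 h against 10.63 and 11.33 with EtOH, and the open diamond marks EtOH 48 h replicate 1, the higher of the EtOH samples at 48 h in every panel but that of NDUFA10.

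Short stretches around the annotated starts of 4 members that fell at 48 h are shown, because promoters of respiratory chain genes are known for sites of nuclear respiratory factor 1 (NRF1) and of ETS factors. They run from 120 bases before the start to 10 bases after it on the gene's own strand, from RefSeq on GRCh38.p14. Capitals mark matches to the consensus motif of NRF1 (the longer runs) and to CCGGAAG, a motif of ETS factors (the shorter runs), each searched on both strands. NDUFAF2 (chr5:60945085-60945214, + strand) had neither, NDUFAF5 (chr20:13784908-13785037, + strand) and ATP5F1C (chr10:7788057-7788186, + strand) had the NRF1 motif once, and UQCR11 (chr19:1605453-1605582, - strand) had both motifs, each in 2 places.
NDUFAF2: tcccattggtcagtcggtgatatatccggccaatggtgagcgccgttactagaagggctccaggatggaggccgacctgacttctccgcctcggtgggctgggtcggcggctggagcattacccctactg
NDUFAF5: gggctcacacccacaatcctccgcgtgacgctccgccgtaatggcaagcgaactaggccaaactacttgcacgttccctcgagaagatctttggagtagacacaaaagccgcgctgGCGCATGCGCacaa
ATP5F1C: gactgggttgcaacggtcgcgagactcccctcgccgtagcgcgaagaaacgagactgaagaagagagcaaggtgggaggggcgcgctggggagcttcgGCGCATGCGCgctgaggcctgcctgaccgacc
UQCR11: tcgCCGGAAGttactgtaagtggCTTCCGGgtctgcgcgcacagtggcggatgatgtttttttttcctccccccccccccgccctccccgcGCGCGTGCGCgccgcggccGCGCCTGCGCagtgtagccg
In windows of 250 bases before to 50 after the start, 69 of the 84 members had an entry. The NRF1 motif was present in 15 of these 69 (21.7%) and in 4 of the 11 called members with an entry (36.4%), against 9.67% of promoters of protein-coding genes. The ETS motif was present in 22 of 69 (31.9%) and 4 of 11 (36.4%), against 16.5%. No match of these motifs overlapped a match of the other in the stretches shown. Such a match is a description of letters and not a measured binding site.

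Among the 33 complex I subunits, 1 was called lower with ATRA and 0 with 9-cis RA at 48 h, where 8.78% and 5.49% of all genes were. The medians of the 33 were -0.21 and -0.15. With ATRA at 48 h 31 of the 33 lay below 0, where 50.1% of all genes did. The median deviation of the 33 from the mean of all samples was 0.42 in EtOH 48 h replicate 1 and -0.08 in EtOH 48 h replicate 2-3. It was -0.06, -0.10 and -0.07 in the ATRA samples at 48 h, level with the second of these controls. All ATRA samples lay below both EtOH samples for 7 of the 33 and above them for 0, where 20% and 18.7% of all genes did so. An unadjusted p under 0.05 was reached by 4 of the 33 and by 3415 of all 10673 genes, and 0 of the 33 were called without EtOH 48 h replicate 1. NDUFB6, an accessory subunit of the membrane arm, read 11.33 and 10.68 with EtOH and 10.57, 10.41 and 10.20 with ATRA. It fell by 0.60 ± 0.18 (adjusted p = 0.0376), and a second probe gave -0.49. The 6 measured core subunits (NDUFS1, NDUFS3, NDUFS7, NDUFS8, NDUFV1 and NDUFV2) include those that carry the flavin and iron-sulphur clusters. These 6 gave 0 calls in any comparison, with a median of -0.15 for ATRA at 48 h.

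At 24 h of ATRA 0 of the 84 members were called, where 2.46% of all genes were lower and 3.29% higher, and an unadjusted p under 0.05 was reached by 10 members and by 2227 of all 10673 genes. At 24 h of 9-cis RA 2 of the 84 were lower and 0 higher, where 5.78% of all genes were lower and 8.7% higher. That count was 0 without either EtOH sample of 24 h and without 9-cis RA 24 h replicate 1, and 6 without either EtOH sample of 48 h. NDUFA10, an accessory subunit of complex I, read 9.47 and 9.70 with EtOH, 8.69 and 9.11 with 9-cis RA and 9.29, 9.22 and 8.98 with ATRA. It fell by 0.69 ± 0.18 with 9-cis RA (adjusted p = 0.0266) and differed by -0.42 with ATRA, and its other probe gave -0.17 and -0.19. By 48 h the 9-cis RA difference was -0.08, and the change between the times, 0.60 ± 0.26, did not pass (adjusted p = 0.352). NDUFV3, an accessory subunit next to the flavin site, had the lowest p among complex I subunits with ATRA at 24 h, with a difference of -0.72 ± 0.28 that did not pass (adjusted p = 0.164). Its lowest values, 5.75 and 5.56, were those of ATRA replicate 4 at 24 and at 48 h.

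NDUFS1, the largest core subunit, differed in the other direction at 24 h. It read 5.89 and 5.71 with EtOH, 6.45, 5.89 and 6.71 with ATRA and 6.60 and 6.25 with 9-cis RA. The differences of 0.55 ± 0.23 and 0.62 ± 0.26 did not pass (adjusted p = 0.198 and 0.112), and this probe was detected on 15 of 20 arrays. NDUFA5 passed detection on 0 EtOH arrays and on 3 of 3 arrays of 9-cis RA at 24 h, on 1 array each of ATRA and 9-cis RA at 48 h and on no other. It met the filter of 3 arrays through the group where it was high, so its difference there is a description. It was not called.

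In complex II, which oxidizes succinate, 0 of 3 genes were called in any comparison with EtOH. Of all genes, 2.46% to 8.78% were lower and 3.29% to 8.7% higher in these comparisons. SDHD, a membrane anchor, read 9.58 and 9.57 with EtOH at 24 h and 9.32, 9.19 and 9.12 with ATRA, and the groups did not overlap. The difference of -0.37 ± 0.14 did not pass (adjusted p = 0.147). At 48 h SDHD differed by -0.31 ± 0.14 with ATRA and by -0.05 with 9-cis RA. SDHC, the other anchor, differed by -0.34 with either retinoid at 48 h (SE 0.18 with ATRA and 0.19 with 9-cis RA). A second SDHC probe gave -0.08 with ATRA and -0.13 with 9-cis RA, so the size depends on the probe. SDHA, the flavoprotein, differed at 48 h by -0.21 ± 0.15 with ATRA and -0.19 ± 0.16 with 9-cis RA. A second SDHA probe gave 0.26 and 0.34, the opposite direction.

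In complex III, 2 of 9 genes were lower with ATRA and 1 of 9 with 9-cis RA at 48 h, where 8.78% and 5.49% of all genes were, and 0 of 9 with either retinoid without EtOH 48 h replicate 1. The other small subunits UQCRQ, UQCRH and UQCRB did not pass, at 0.01, 0.06 and -0.23 with ATRA. A second probe gave -0.07 for UQCRH and -0.58 for UQCRB, so the value of UQCRB depends on the probe. UQCR11, the smallest subunit, read 8.27 and 7.72 with EtOH, 7.48, 7.17 and 7.31 with ATRA and 7.07 and 7.25 with 9-cis RA. Every retinoid sample lay below both EtOH samples. UQCR11 fell by 0.68 ± 0.17 with ATRA (adjusted p = 0.0169) and by 0.83 ± 0.19 with 9-cis RA (adjusted p = 0.0122). UQCR10, another small subunit, read 10.56 and 9.91 with EtOH and 9.78, 9.49 and 9.43 with ATRA and fell by 0.67 ± 0.20 (adjusted p = 0.0392), while its 2 other probes gave -0.29 and -0.01. CYC1, the cytochrome c1 that hands electrons to cytochrome c, had the lowest p of the complex with ATRA at 24 h, at -0.27 ± 0.13 (adjusted p = 0.234). UQCRC1 differed by -0.32 ± 0.16 with 9-cis RA at 24 h (adjusted p = 0.175). UQCRH and UQCRHL have near-identical sequences and cannot be told apart with certainty by their probes.

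Complex IV, cytochrome c oxidase, had the median nearest to 0 of the 5 complexes in each comparison with EtOH. Of its 11 genes 0 were called in any comparison with EtOH, where 2.46% to 8.78% of all genes were lower and 3.29% to 8.7% higher. The medians of the 11 were -0.04 and -0.10 with ATRA and -0.02 and -0.04 with 9-cis RA at 24 and 48 h. The ubiquitous isoforms COX4I1, COX6A1, COX6B1, COX7A2 and COX8A were the ones measured, and at 48 h of ATRA these 5 lay between -0.12 and 0.02. COX7A2L, which is known from respiratory supercomplexes, was the furthest above 0 of the 11 at 48 h. It read 10.96 and 11.26 with EtOH, 11.39, 11.43 and 11.43 with ATRA and 11.40 and 11.44 with 9-cis RA at 48 h. EtOH 48 h replicate 1 was the lowest of all samples for this gene, and the differences of 0.31 ± 0.13 and 0.31 ± 0.14 did not pass (adjusted p = 0.111 and 0.185).

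In complex V, the ATP synthase, 3 of 18 genes were lower with ATRA and 1 of 18 with 9-cis RA at 48 h, where 8.78% and 5.49% of all genes were. Without EtOH 48 h replicate 1 the count was 0 with either retinoid. ATP5MC1, 1 of 3 genes that encode the same mature c subunit of the rotor ring, read 11.79 and 10.98 with EtOH, 10.63, 10.63 and 10.60 with ATRA and 10.61 and 10.47 with 9-cis RA. The EtOH samples were further apart than the 5 retinoid samples were from each other. ATP5MC1 fell by 0.76 ± 0.19 with ATRA (adjusted p = 0.0145) and by 0.84 ± 0.21 with 9-cis RA (adjusted p = 0.0184), and a second probe gave -0.86 and -0.87. The other c-subunit genes were not called: ATP5MC2 differed by -0.20 with either retinoid (SE 0.20 with ATRA and 0.22 with 9-cis RA), and ATP5MC3 by -0.22 ± 0.26 and 0.09 ± 0.28. A second probe of ATP5MC2 gave -0.55 with ATRA and -0.66 with 9-cis RA, so the size of its difference depends on the probe.

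ATP5F1C, the central stalk gamma subunit, read 12.63 and 12.25 with EtOH and 11.95, 12.01 and 11.94 with ATRA at 48 h and fell by 0.48 ± 0.15 (adjusted p = 0.0392). ATP5MK, a small membrane subunit, read 10.91 and 10.32 with EtOH and 10.04, 10.21 and 9.94 with ATRA and fell by 0.55 ± 0.17 (adjusted p = 0.0383). For both, the gap between the EtOH samples was larger than the gap between the lower EtOH sample and the highest ATRA sample. ATP5F1D, the delta subunit, read 11.33 and 11.42 with EtOH and 10.75 and 10.76 with 9-cis RA at 24 h and fell by 0.62 ± 0.19 (adjusted p = 0.0428), and a second probe gave -0.64.

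The catalytic head did not share these falls. ATP5F1A and ATP5F1B, the alpha and beta subunits, differed at 48 h by 0.31 ± 0.16 and 0.14 ± 0.16 with ATRA and by 0.43 ± 0.17 and 0.19 ± 0.18 with 9-cis RA, with adjusted p from 0.142 to 0.596. EtOH 48 h replicate 1 read 13.16 for ATP5F1A and 13.66 for ATP5F1B, the lowest value of any sample for both. ATP5IF1, which inhibits ATP hydrolysis by the synthase, differed by -0.32 ± 0.19 and -0.30 ± 0.21 at 48 h and was not called, and a second probe gave 0.18 and 0.26, the opposite direction. The pseudogene copies UQCRBP1 and ATP5F1EP2 share sequence with UQCRB and ATP5F1E, so their probes are uncertain, and neither was called.

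Over all members, 11 of 84 fell with ATRA at 48 h, 5 with 9-cis RA at 48 h, 2 with 9-cis RA at 24 h and 0 with ATRA at 24 h, and 0 rose in any of these comparisons. The share lower with ATRA at 48 h was somewhat above the 8.78% of all genes called lower, and 8.61% of all genes were called higher. With 9-cis RA at 48 h it was near the 5.49% of all genes called lower, where 5.53% were higher. At 24 h 5.78% of all genes were lower and 8.7% higher with 9-cis RA, and 2.46% and 3.29% with ATRA. The 5 genes of 9-cis RA at 48 h were NDUFAF2, NDUFAF4, NDUFAF8, UQCR11 and ATP5MC1. All 5 were among the 11 of ATRA, and both comparisons use the same EtOH samples. The median over the 84 members was -0.10 and -0.20 with ATRA and -0.12 and -0.15 with 9-cis RA at 24 and 48 h, against medians between -0.02 and 0.01 over all genes. At 24 h all ATRA samples lay below both EtOH samples for 29 members and above them for 3, where 24.2% and 21.9% of all genes did so, and all 9-cis RA samples for 44 and 15, where 34.5% and 37.8% did. At 48 h the counts were 28 and 3 with ATRA, where 20% and 18.7% of all genes did so, and 29 and 8 with 9-cis RA, where 25.3% and 23.7% did.

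Without EtOH 48 h replicate 1 the 48 h differences shrank. ATRA then gave 2 calls among the members, NDUFAF2 and NDUFAF5, with a median of -0.01, and 9-cis RA gave 0 calls with a median of 0.04. The shares of all genes called lower were then 3.35% and 2.79%. Without the other control, EtOH 48 h replicate 2-3, ATRA gave 29 lower and 4 higher members and 9-cis RA 20 lower and 4 higher, where 15.7% and 11.8% of all genes were lower. The 11 members called with ATRA at 48 h were all below 0 within the first array set (-1.03 to -0.38) and within the second (-0.76 to -0.19), while the median over all 84 members was -0.17 in the first set and -0.01 in the second. These 11 were called on the same arrays, so their direction within a set is a description and not separate support. The second set has 1 EtOH array at 48 h, which shares its title number with an array of the first set. Within the second set 0 members were called with either retinoid at 48 h.

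**Figure D3:**
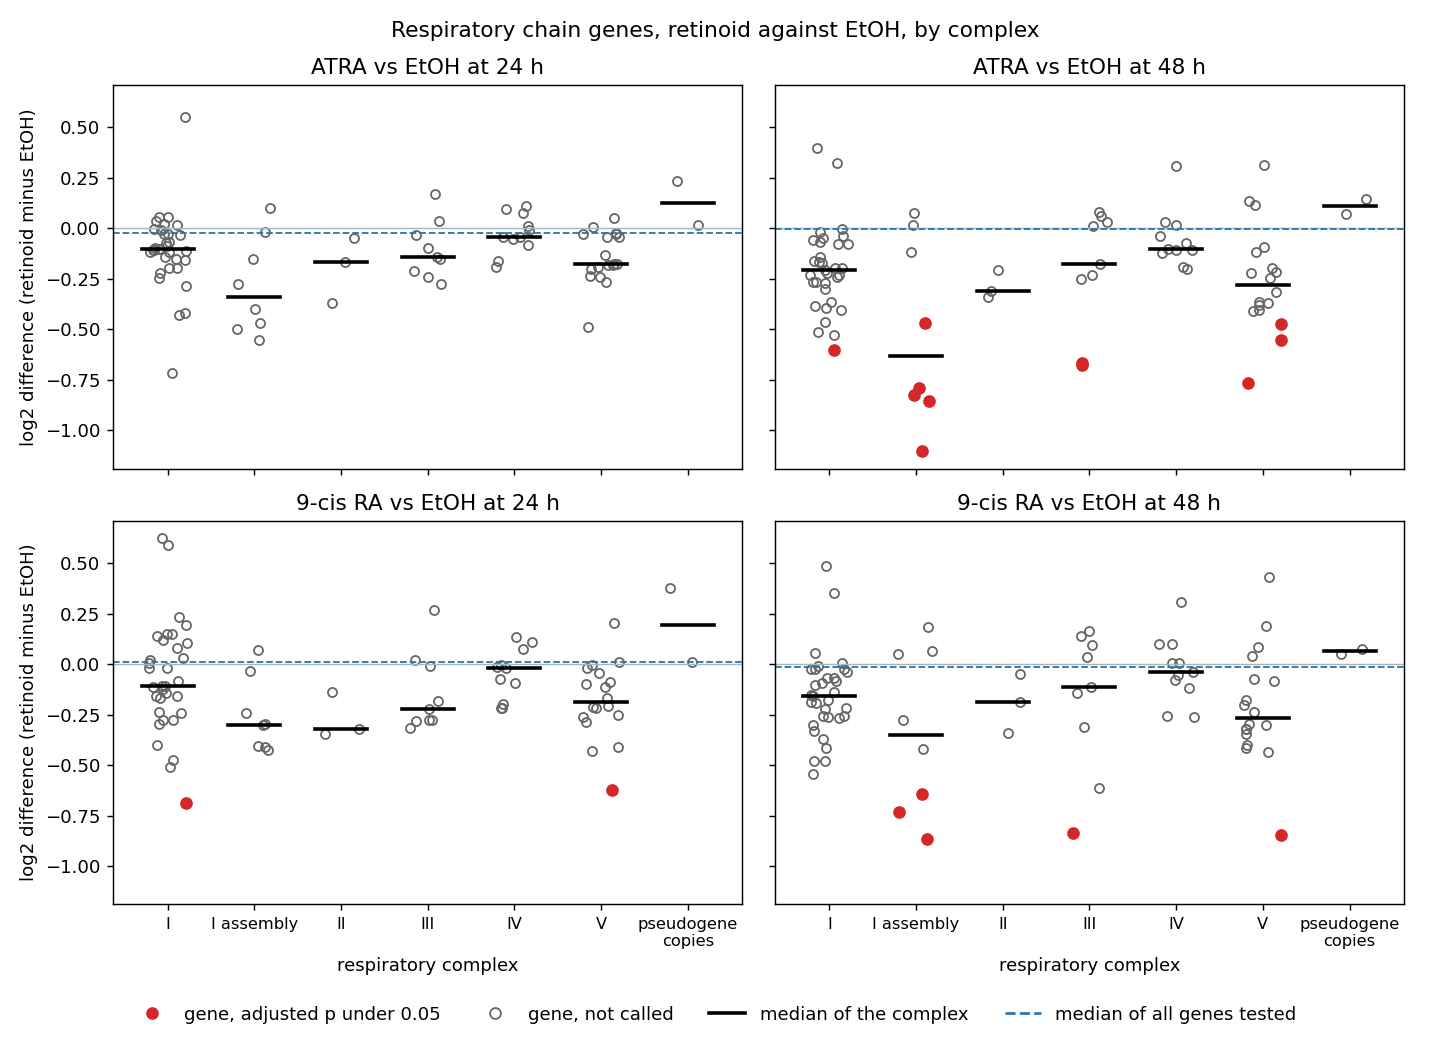
The log2 difference of each member between a retinoid and EtOH (y axis) is plotted by complex (x axis) for the 4 comparisons, with filled points for genes called at an adjusted p under 0.05 and bars at the median of each complex. The lowest points are complex I assembly factors with ATRA at 48 h, whose median is -0.63, and complex IV lies near the dashed line of all genes, with medians from -0.10 to -0.02.

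**Figure D4:**
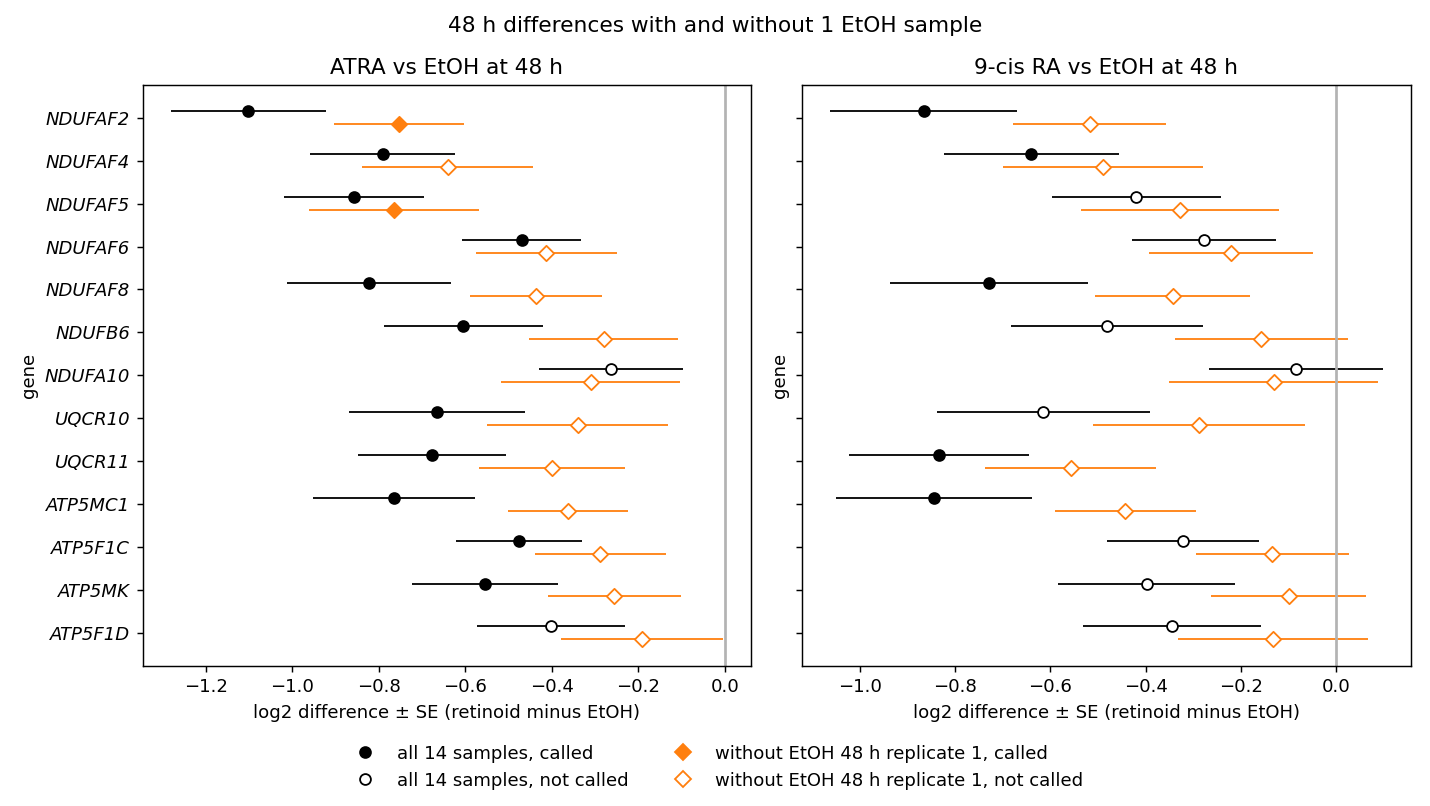
The 48 h log2 difference ± SE (x axis) of the 13 called members (y axis) is plotted with all 14 samples (circles) and without EtOH 48 h replicate 1 (diamonds), filled where the adjusted p was under 0.05. With that sample left out, NDUFAF2 (-0.75) and NDUFAF5 (-0.76) stay filled for ATRA and 0 members stay filled for 9-cis RA.

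The 2 retinoids are stereoisomers, all-trans in ATRA and cis at a side-chain bond in 9-cis RA, and they were compared at the matched dose of 100 nM in 168 pairs, 84 members at each time. Of these, 0 passed after adjustment over all genes, where 0% of all genes were called higher and 0.0656% lower at 24 h and 0.00937% and 0.0281% at 48 h. All ATRA samples lay above the 9-cis RA samples for 11 members and below them for 8 at 24 h, where 10.9% and 20.7% of all genes did so, and for 0 and 14 at 48 h, where 11.8% did so in each direction. The lowest adjusted p was 0.489 at 24 h and 0.877 at 48 h. The 95% interval of the difference lay within 1 log2 unit of 0 for 83 of 84 members at 24 h and 83 of 84 at 48 h, and on the median it reached 0.34 to either side of the difference. The interval excluded 0 for 1 pair, NDUFAF5 at 48 h, at -0.44 (-0.79 to -0.09), where the ATRA samples read 8.97, 8.61 and 8.76 and the 9-cis RA samples 9.24 and 9.20. Against EtOH at 24 h the ATP5F1D probe used gave -0.27 with ATRA and -0.62 with 9-cis RA. A second probe gave -0.55 and -0.64, so the gap between the retinoids depends on the probe. With the probe used, the ATP5F1D difference between the retinoids at 24 h was 0.36 (-0.01 to 0.73). These intervals allow differences of moderate size in either direction, so the missing calls do not show that the isomers act alike.

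In EtOH 0 of 84 members were called at 48 against 24 h, where 0.00937% of all genes were higher and 0.0187% lower, and without EtOH 48 h replicate 2-3 1 was lower and 3 higher. Both 48 h samples lay above both 24 h samples for 10 members and below them for 6, where 16% and 15.8% of all genes did so. A change of an effect from 24 to 48 h was not called for any member, where 0.0375% of all genes were called higher and 0% lower for ATRA and 0.00937% and 0% for 9-cis RA. NDUFAF2 had the lowest p for ATRA, with a change of -0.55 ± 0.25 (adjusted p = 1.00 after rounding). A call at 48 h and none at 24 h is therefore not a shown difference between the times.

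Genes that serve the respiratory chain but lie outside the symbol rule were read from lists chosen with earlier results of these data known. Of 78 genes of the mitochondrial ribosome, which makes the core subunits encoded in mitochondrial DNA, 23 were lower and 0 higher with ATRA at 48 h, with a median of -0.40, where 8.78% of all genes were lower and 8.61% higher. The count was 0 without EtOH 48 h replicate 1, with a median of -0.21. MRPL12 read 11.60 and 10.92 with EtOH and 10.45, 10.25 and 10.07 with ATRA at 48 h. In the other 3 comparisons the shares of all genes called lower were 2.46% with ATRA at 24 h, and 5.78% and 5.49% with 9-cis RA at 24 and 48 h. With ATRA at 24 h 1 gene of this list was lower, and with 9-cis RA 5 at 24 h and 4 at 48 h, the last of which became 0 without EtOH 48 h replicate 1.

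Among 18 genes of ubiquinone synthesis and electron carriers, 6 were lower and 1 higher with ATRA at 48 h, where 8.78% and 8.61% of all genes were, and 5 were lower at 24 h, where 2.46% were. Without EtOH 48 h replicate 1 the 48 h counts were 3 lower and 2 higher. COQ10A, a coenzyme Q binding protein, read 9.21 in both EtOH samples, 8.34, 8.32 and 8.45 with ATRA and 8.47 and 8.29 with 9-cis RA at 48 h. It fell by 0.84 ± 0.12 with ATRA and by 0.83 ± 0.14 with 9-cis RA (adjusted p = 0.000594 and 0.0016). PDSS1, which makes the ubiquinone side chain, fell by 0.76 ± 0.15 at 24 h and 0.91 ± 0.15 at 48 h with ATRA (adjusted p = 0.00753 and 0.00115). COQ3, a methyltransferase of ubiquinone synthesis, fell by 0.96 ± 0.13 with ATRA at 48 h (adjusted p = 0.000285). These 3 genes were still lower with ATRA without EtOH 48 h replicate 1 (-0.84, -1.07 and -0.80, adjusted p = 0.00474, 0.00208 and 0.00325). COQ5, another methyltransferase, rose by 0.64 ± 0.13 (adjusted p = 0.00627).

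Of 21 complex IV assembly genes, 4 were lower and 2 higher with ATRA and 4 lower and 0 higher with 9-cis RA at 48 h. Of all genes, 8.78% were lower and 8.61% higher with ATRA, and 5.49% and 5.53% with 9-cis RA. SCO2, a copper chaperone of cytochrome c oxidase, read 9.47 and 9.23 with EtOH, 8.60, 8.50 and 8.82 with ATRA and 8.62 and 8.63 with 9-cis RA at 48 h. It fell in all 4 comparisons, by 0.75 and 0.71 with ATRA and by 0.59 and 0.73 with 9-cis RA at 24 and 48 h. Without EtOH 48 h replicate 1 the list had 1 gene lower with ATRA and 0 with 9-cis RA, and SCO2 was at -0.59 and -0.61 (adjusted p = 0.043 and 0.0542). COX15, of heme A synthesis, rose by 0.50 ± 0.15 with ATRA at 48 h, a call lost without that sample (adjusted p = 0.0614). BCS1L, which inserts the Rieske protein into complex III, fell by 0.61 ± 0.17 with 9-cis RA at 48 h, also lost without it (-0.35, adjusted p = 0.223), and 0 of 4 complex II assembly genes were called in any of the 4 comparisons. TMEM70, which helps to assemble complex V, fell at 24 h by 0.61 ± 0.16 with ATRA and by 0.77 ± 0.17 with 9-cis RA.

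PPARGC1A, the coactivator PGC-1alpha that is known to raise transcription of respiratory chain genes, rose. It read 6.27 and 6.17 with EtOH, 7.19, 7.56 and 7.98 with ATRA and 7.40 and 7.51 with 9-cis RA at 24 h, with no overlap. At 48 h it read 6.35 and 5.98 with EtOH, 7.17, 7.25 and 7.63 with ATRA and 7.2 and 7.26 with 9-cis RA. The rises were 1.36 ± 0.21 and 1.19 ± 0.21 with ATRA and 1.24 ± 0.23 and 1.07 ± 0.23 with 9-cis RA at 24 and 48 h (adjusted p = 0.00153, 0.00214, 0.00447 and 0.00948). Without EtOH 48 h replicate 1 they were 1.37 and 1.25 at 48 h. In the same list of 15 regulators, ESRRA, a nuclear receptor that works with PGC-1alpha, fell by 0.88 ± 0.18 with ATRA at 48 h, a call lost without that sample (-0.81, adjusted p = 0.052), and POLG2, a subunit of the mitochondrial DNA polymerase, fell in all 4 comparisons (-0.55, -0.68, -0.68 and -0.58).

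UCP2, a carrier of the inner membrane, fell with ATRA by 1.12 ± 0.28 at 24 h and 1.31 ± 0.28 at 48 h (adjusted p = 0.0352 and 0.00739). The 48 h call was lost without EtOH 48 h replicate 1 (-1.29, adjusted p = 0.0608), and ATRA replicate 4 gave the lowest value of each ATRA group, 7.05 and 6.21. Of 11 genes of the citric acid cycle, 0 were called with ATRA at either time and 1, OGDH, fell with 9-cis RA at 24 h by 0.82 ± 0.24. At 48 h 0 were called with either retinoid, and 1 was lower with each without EtOH 48 h replicate 1. Of 16 genes of mitochondrial import and chaperones, 1 was higher and 2 were lower with ATRA at 48 h, where 8.61% and 8.78% of all genes were. CLPX, of the matrix protease, rose in all 4 comparisons with EtOH, by 0.67 ± 0.14 and 0.72 ± 0.14 with ATRA at 24 and 48 h. CLPP and TRAP1 of the same list fell by 0.72 ± 0.20 and 0.61 ± 0.14 with ATRA at 48 h (adjusted p = 0.0249 and 0.00936). Without EtOH 48 h replicate 1 the ATRA differences were 0.60 for CLPX, -0.27 for CLPP and -0.69 for TRAP1.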

How the data were processed

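Gene expression was measured on 20 Illumina BeadChips of biotin-labelled RNA from Mel202 cells. The authors deposited a non-normalized intensity per probe and array with a detection p-value (its steps are 1 in 770), and a series matrix of log2 values that they made with lumi per the submitters' processing notes. No header names the build or the settings of lumi (not given in the sources used here).

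Intensities of 47323 probes went through limma's neqc, which infers negative controls from the detection p, corrects the background, adds an offset (16), normalizes quantiles and takes log2 (R 4.3.3, limma 3.58.1; figures with matplotlib 3.10.9). Of 18269 probes that passed detection at 0.01 on 3 or more arrays, the brightest listed with a single gene represented each of 10673 genes. RefSeq, joined on Entrez ID, altered 0 symbols. Arrays with the same title number were averaged into 14 samples. A model of 6 group means was fitted over all genes by limma with eBayes (residual degrees of freedom 8, prior 5.09), adjusted by Benjamini and Hochberg. The fit was tested on simulated data. Intervals are 95%.

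The members and gene lists were chosen with earlier results of these data known. Named with values are every called member, the member of lowest p in each complex and comparison, a fixed set of isoforms and subunits, and up to 4 called genes of each other list; the promoters were chosen after the values were seen.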

Additional observations from a re-analysis of the deposited data

How the results depend on the processing

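No paired analysis was possible because no label links a retinoid sample with an EtOH sample. The 48 h counts rest on which EtOH sample is used: leaving out each sample in turn gave 2 to 33 called members for ATRA at 48 h and 0 to 24 for 9-cis RA at 48 h, the lowest without EtOH 48 h replicate 1 and, for 9-cis RA, also without 9-cis RA 48 h replicate 1. The same ranges were 0 to 3 for ATRA and 0 to 6 for 9-cis RA at 24 h, 0 to 4 for EtOH at 48 against 24 h and 0 to 1 for the change of the 9-cis RA effect. Using the 20 arrays with the title number as a random block, in place of means, gave 2 calls for ATRA and 5 for 9-cis RA at 24 h, and 1 for ATRA at 24 h with the array set as a term. For ATRA at 48 h, 11 calls became 19 with equal array medians (where the median of all genes was -0.10), 18 with the authors' series matrix (17 lower, 1 higher), 6 in array set 1, 0 in array set 2 and 2 with the groups of the contrast alone. For 9-cis RA at 48 h, 5 became 3 with equal array medians, 10 with the series matrix, 0 with the groups alone and 0 in array set 2. For 9-cis RA at 24 h, 2 became 4 without background correction, 0 with equal array medians, 5 with the series matrix, 1 with the mean of all probes, 4 in array set 1, 12 with the groups alone, 4 without ATRA replicate 4 and 0 in array set 2 (leaving out ATRA replicate 4 at both times and array set 2 alone were chosen after seeing the data). In array set 2 each EtOH and 9-cis RA group has 1 array, so fewer samples are compared there; the cause of the other moves was not tested. No direction of a called member turned under any alternative.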
